A study of Mus musculus with 7 samples.

Results

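A set of 9 genes, 4 of cross-presentation and 5 of the phagocyte NADPH oxidase, was followed in sorted CD8 dendritic cells of C57BL/6 mice. The genes were taken by name, through the Entrez identifier of each row, and all 9 were among the 27179 genes listed and among the 10863 that passed the filter on low counts. The series concerns CD8 dendritic cells described as paralysed after a systemic inflammatory syndrome, and total RNA was sequenced from 7 libraries. The CpG CD103 high group (n = 2) was treated with CpG, a DNA motif sensed by Toll-like receptor 9, and was sorted for a high surface level of CD103. The CD103 low group (n = 2) and the CD103 negative group (n = 3) were untreated. Neither age nor tissue, nor the CpG dose or its timing, is stated in the labels, and the libraries of a group are called biological replicates without saying whether animals were pooled. Treatment and a high CD103 level occur in the same libraries and cannot be told apart. Both CpG CD103 high libraries and CD103 negative replicates 1 and 2 carry a date in 2012, while both CD103 low libraries and CD103 negative replicate 3 carry a date in 2013.

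Cross-presentation is the display, on MHC class I, of peptides from material that a cell has taken up, and CD8 dendritic cells, part of the type 1 conventional subset (cDC1), are known for it. Antigen must survive in the phagosome, reach the cytosol or be trimmed in the endosome, and meet class I molecules. The NADPH oxidase NOX2 makes superoxide inside the phagosome, which consumes protons and slows the breakdown of antigen. It is built from a membrane pair (Cybb and Cyba), from cytosolic subunits, among them Ncf1 and Ncf4, and from a Rac GTPase.

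Promoter sequence was available for 7 of the 9 genes in RefSeq (GRCm38.p6), with 2 starts for Rab27a and none listed for Ncf4 and Rac2. The windows of Cybb, which had the lowest level of the set and 1 library far above the others, of Ncf1, an abundant partner subunit, and of Wdfy4, the highest per length, are shown for comparison. Each holds the 250 bases before the start, 5′ to 3′ on the minus strand. They lie at chrX:9469325-9469574, chr5:134229626-134229875 and chr14:33185067-33185316. Capitals mark matches on either strand to the core of an interferon response element, 2 copies of GAAA with any 2 bases between them, or to TGANTCA, an AP-1 site.
Cybb: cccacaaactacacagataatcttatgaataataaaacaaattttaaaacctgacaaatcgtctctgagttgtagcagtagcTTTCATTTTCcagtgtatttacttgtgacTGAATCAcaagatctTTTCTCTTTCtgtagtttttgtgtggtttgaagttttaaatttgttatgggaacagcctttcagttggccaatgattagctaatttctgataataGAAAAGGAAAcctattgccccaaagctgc
Ncf1: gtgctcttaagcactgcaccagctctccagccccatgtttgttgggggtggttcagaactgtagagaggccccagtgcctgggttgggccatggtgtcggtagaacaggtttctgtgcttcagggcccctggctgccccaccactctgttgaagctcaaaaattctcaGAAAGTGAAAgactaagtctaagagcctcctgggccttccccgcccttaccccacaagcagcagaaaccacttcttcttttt
Wdfy4: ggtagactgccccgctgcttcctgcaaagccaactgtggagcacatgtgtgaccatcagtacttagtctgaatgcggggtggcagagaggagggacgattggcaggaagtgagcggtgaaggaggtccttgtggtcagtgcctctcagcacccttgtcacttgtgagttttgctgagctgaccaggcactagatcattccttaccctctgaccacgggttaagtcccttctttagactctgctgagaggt
The Cybb window held 3 matches to the interferon element, at bases 168 to 159, 124 to 115 and 29 to 20 before the start, and 1 to TGANTCA at 139 to 133. The Ncf1 window held 1 match to the interferon element, at 82 to 73. No match was found in the windows of Wdfy4, Sec22b, Lnpep, Cyba or Rab27a, and the PU.1 and IRF composite (GGAA and GAAA with any 2 bases between them) had no match in any of the 7 genes. No matches overlapped. Among all 32851 promoter windows of this length, 2.98% held the interferon element, 6.75% held TGANTCA and 2.3% held the composite. The windows of Cybb and Wdfy4 fall between exons of a longer transcript of each gene in GENCODE. The second Rab27a window likewise falls within 3 transcripts and on no exon. The windows of Sec22b and Lnpep each overlap 3 exon entries of their own gene. A match is a description of letters and not of binding.

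The labels held up against the genes that define them. Itgae, which encodes the CD103 chain, averaged 1006 ± 19.6 CPM in CpG CD103 high, 360.2 ± 20.8 in CD103 low and 59.6 ± 4.61 in CD103 negative cells (SD, n = 2, 2 and 3), where CPM is a gene's count scaled to a library of 1e+06 counts. Since cells were sorted on this protein, that difference only checks the labels. Cd8a, a gene of the CD8 receptor that names the subset, had means of 1325 ± 63.8 CPM in CpG CD103 high, 1406 ± 31.7 in CD103 low and 1383 ± 153 in CD103 negative cells. T cell markers summed to 33.8 CPM in CD103 low replicate 2 and to at most 3.41 in any other library. Each of 8 cDC1 markers had counts in every library, with a sum of 11570 and 10794 CPM in CpG CD103 high, 8765 and 9047 in CD103 low, and 7363 to 8205 in CD103 negative libraries. Total counts ran from 4474211 to 4629181, so a listed 0 can hide up to 3 counts, or 0.638 to 0.690 CPM (counting error only).

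None of the 9 genes passed the threshold in any comparison between groups. The test was edgeR's quasi-likelihood test with the date as a term, and a gene was called when its adjusted p (Benjamini-Hochberg, over all genes tested) was below 0.05. Between CpG CD103 high and CD103 negative, 0 of 9 were called against 26.3% of all genes (14.5% higher and 11.8% lower), and 4 of 9 had an unadjusted p under 0.05 against 39.1% of all genes. Between CD103 low and CD103 negative, 0 of 9 were called against 0.138% of all genes (0.0552% higher and 0.0829% lower), with 2 of 9 at an unadjusted p under 0.05 (7.34% of all genes). Between CpG CD103 high and CD103 low, 0 of 9 were called against 6.22% of all genes (3.44% higher and 2.78% lower), with 3 of 9 at an unadjusted p under 0.05 (23.5% of all genes). The median log2 fold change of the 9 genes was 0.14, 0.02 and 0.14 in these comparisons, beside -0.01, 0.01 and -0.02 over all genes tested. DESeq2 called 0 members in each comparison, but gave no adjusted p for 2 of the 9 in CD103 low over CD103 negative. With limma voom, Cybb alone was called, in CpG CD103 high over CD103 low. A missed threshold does not show that levels were alike, so the intervals below carry the size that the data allow. The 95% interval of the fold change lay within 1.5-fold either way for 6 of 9 genes in the first comparison, for 7 in the second and for 2 in the third.

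**Figure D1:**
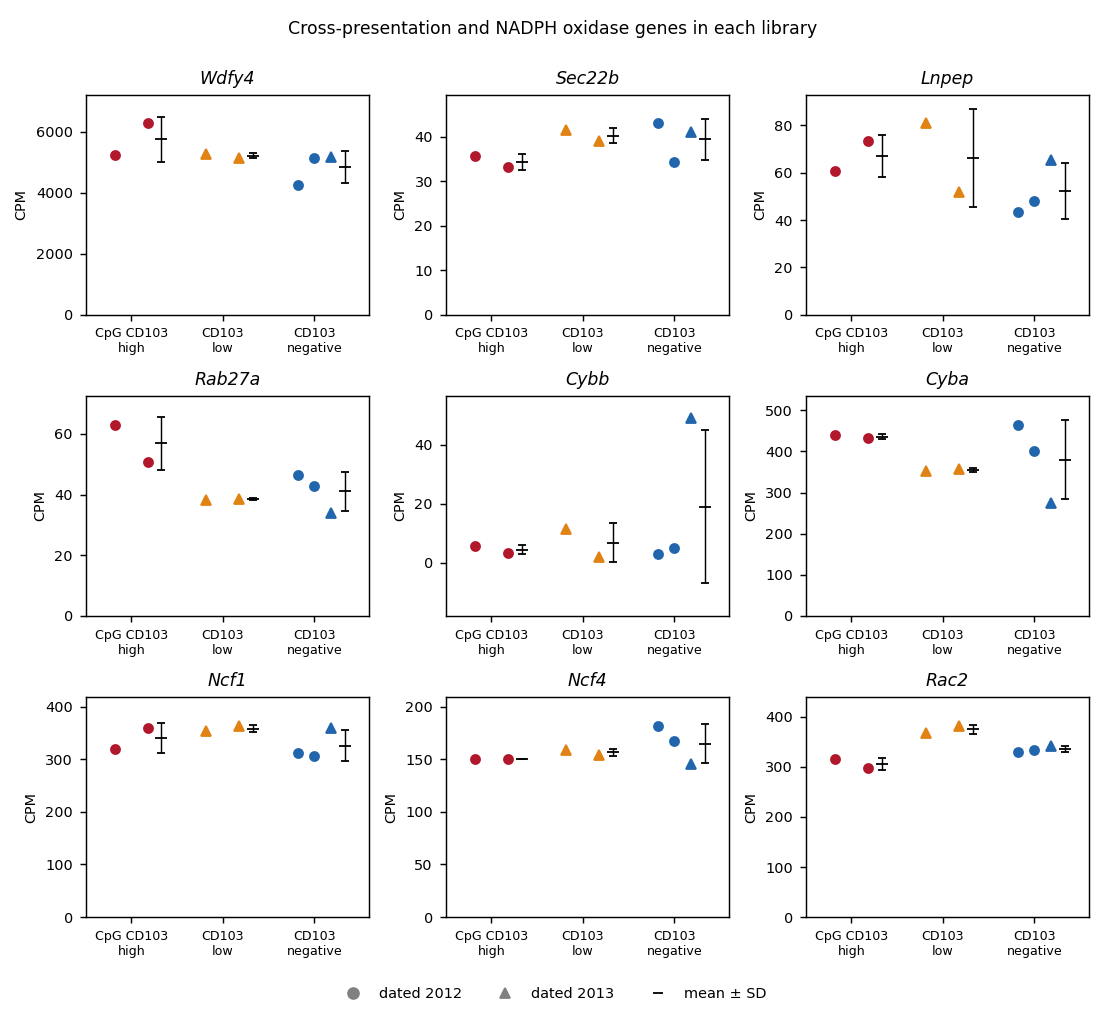
CPM of each of the 9 genes in each of the 7 libraries, with circles for libraries dated 2012, triangles for 2013, and the mean with SD of each group at its right. CD103 negative replicate 3 stands at 49.2 CPM for Cybb, while the other 6 libraries lie between 2.07 and 11.6.

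Levels of different genes are set side by side as RPKM, which divides CPM by the listed gene length in kilobases. Wdfy4 (mean 539 RPKM over the 7 libraries) and Cyba (512) stood at ranks 86 and 91 of all 27179 genes. Ncf1 (125), Rac2 (111) and Ncf4 (109) followed, and Sec22b (21.1), Rab27a (15.1) and Lnpep (11.7) were in the middle range. Cybb was the lowest at 2.40 RPKM, above 15.0% of the genes that passed the filter. The ranges over libraries of Wdfy4 and Cyba overlapped, as did those of Ncf1, Rac2 and Ncf4, of Sec22b and Rab27a, and of Rab27a and Lnpep. Cybb lay below Lnpep in every library.

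**Figure D2:**
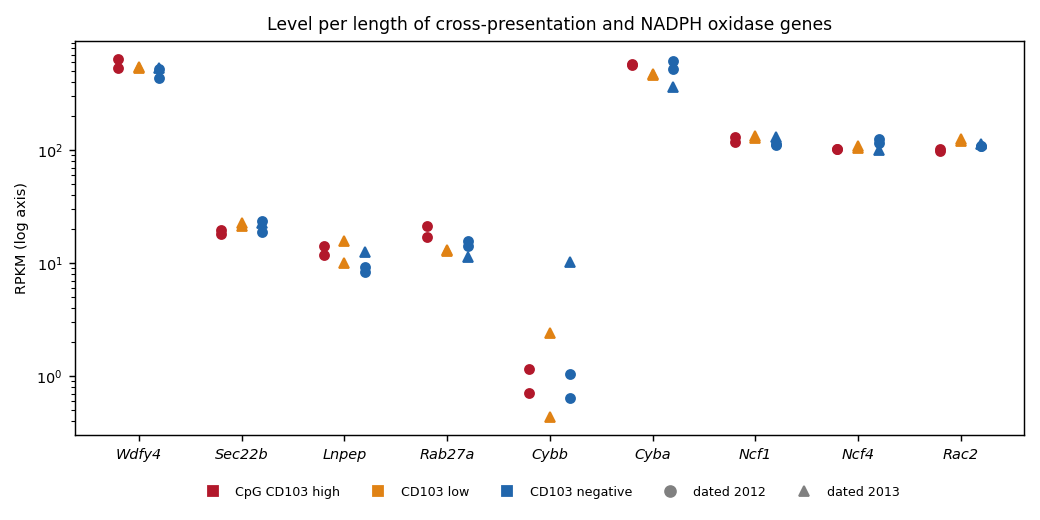
RPKM on a log axis of the 9 genes in each library, coloured by group and shaped by date. Cybb lies between 0.435 and 10.3 RPKM, while Cyba lies between 362 and 612.

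Wdfy4 (Entrez 545030, mm10 chromosome 14, 32959547 to 33193855) encodes a large BEACH-domain protein that cDC1 need for cross-presentation of cell-bound antigen in mice. Its level was 5235 and 6275 CPM in CpG CD103 high, 5282 and 5156 in CD103 low, and 4246, 5132 and 5180 in CD103 negative libraries. Both treated libraries exceeded every CD103 negative library, and CD103 negative replicate 1 was the lowest of all. The log2 fold change of CpG CD103 high over CD103 negative was 0.30 (SE 0.11, 95% interval 0.06 to 0.53, adjusted p = 0.0669, edgeR). Wdfy4 was called without CpG CD103 high replicate 1 (0.42, adjusted p = 0.019, edgeR) and without CD103 negative replicate 2 (0.44, adjusted p = 0.0347). CD103 low over CD103 negative gave 0.01 (interval -0.28 to 0.30), and CpG CD103 high over CD103 low gave 0.28 (-0.09 to 0.66). The summed cDC1 markers were also highest in the treated libraries, and their part in the Wdfy4 level was not tested. Of the 8 markers, 5 were called higher in CpG CD103 high over CD103 negative, where 14.5% of all genes were. The 3 others were not called: Batf3 (0.01), Itgax (0.12) and Cd8a (-0.15). Lrrc18 overlaps the gene and held 157 counts over all libraries against 164772 for Wdfy4.

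Sec22b (Entrez 20333, chromosome 3, 97901227 to 97922318) encodes a SNARE of the endoplasmic reticulum that brings its components to phagosomes. It had 35.7 and 33.2 CPM in CpG CD103 high, 41.6 and 39.1 in CD103 low, and 43.0, 34.3 and 41.1 in CD103 negative libraries. The treated libraries lay below both CD103 low libraries and on either side of CD103 negative replicate 2. The log2 fold change of CpG CD103 high over CD103 negative was -0.17 (interval -0.49 to 0.16), and of CD103 low over CD103 negative -0.03 (-0.41 to 0.36). The difference between CpG CD103 high and CD103 low was -0.14 (-0.64 to 0.36).

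Lnpep (Entrez 240028, chromosome 17, 17527723 to 17624489) encodes the insulin-regulated aminopeptidase IRAP, which trims peptides in endosomes. It had 60.8 and 73.5 CPM in CpG CD103 high, 80.8 and 51.7 in CD103 low, and 43.3, 48.1 and 65.6 in CD103 negative libraries. Of the CD103 negative libraries, only replicate 3 reached into the treated range, and the CD103 low libraries lay on either side of the treated ones. Lnpep had the highest log2 fold change of the set in CpG CD103 high over CD103 negative, 0.56 (SE 0.19, interval 0.12 to 0.99, adjusted p = 0.0591, edgeR). It was called when only the 2012 libraries were fitted (0.56, adjusted p = 0.0273). The call also appeared without CD103 low replicate 1 (adjusted p = 0.0283) or replicate 2 (adjusted p = 0.0273), where the contrast itself stayed at 0.55. Lnpep was at 0.02 (-0.50 to 0.53) in CD103 low over CD103 negative and in CpG CD103 high over CD103 low at 0.54 (-0.13 to 1.21).

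Rab27a (Entrez 11891, chromosome 9, 73044810 to 73097623) encodes a GTPase of lysosome-related organelles that delivers the oxidase to phagosomes in mouse dendritic cells. Its level was 63.0 and 50.7 CPM in CpG CD103 high, 38.1 and 38.6 in CD103 low, and 46.3, 42.7 and 34.1 in CD103 negative libraries. Both treated libraries lay above all 5 untreated ones. The log2 fold change of CpG CD103 high over CD103 negative was 0.35 (SE 0.13, interval 0.05 to 0.65, adjusted p = 0.0802, edgeR), and it was called without CpG CD103 high replicate 2 (0.49, adjusted p = 0.0385). Over CD103 low, the treated cells differed by 0.18 (-0.31 to 0.67). That contrast was called at 0.59 (adjusted p = 0.0178) when CD103 negative replicate 3 and with it the date term were left out. In CD103 low over CD103 negative, Rab27a was at 0.17 (-0.22 to 0.56).

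**Figure D3:**
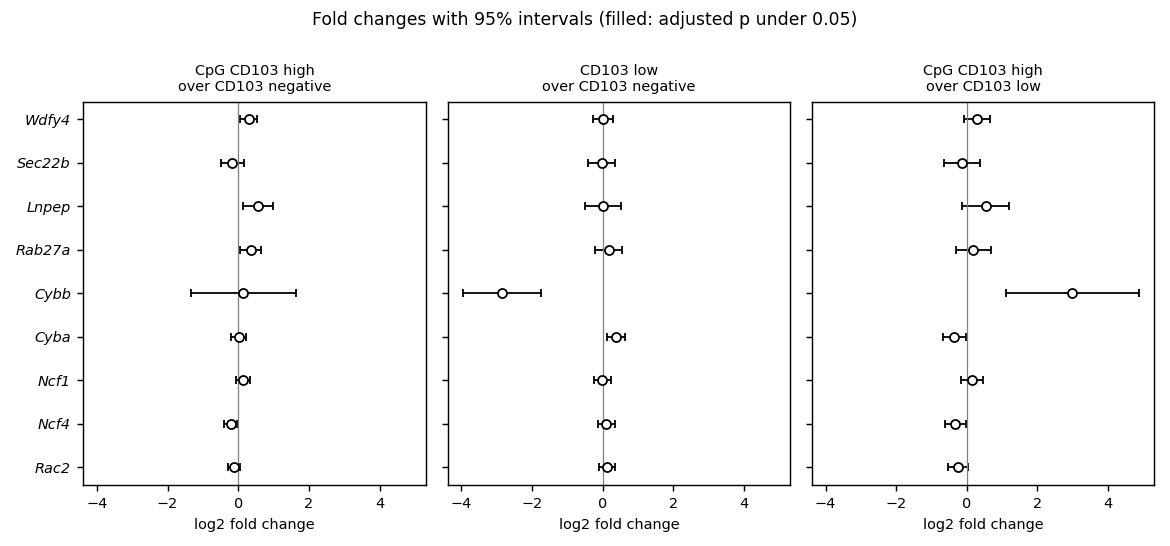
Log2 fold changes of the 9 genes with 95% intervals in the 3 comparisons, from edgeR with the date as a term. A filled point would have an adjusted p under 0.05, and none of the points is filled. Cybb has the widest intervals, from -1.33 to 1.62 in CpG CD103 high over CD103 negative.

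Cybb (Entrez 13058, chromosome X, 9435252 to 9487766) encodes gp91phox, the catalytic chain of NOX2, which carries electrons across the phagosome membrane. Its counts were 25 and 15 in CpG CD103 high, 51 and 9 in CD103 low, and 14, 23 and 231 in CD103 negative libraries. In CPM this was 5.55 and 3.36 in CpG CD103 high, 11.6 and 2.07 in CD103 low, and 3.07, 4.96 and 49.2 in CD103 negative libraries. CD103 negative replicate 3 stood far above the rest, and CD103 low replicate 1 came next. The treated libraries lay within the range of CD103 negative replicates 1 and 2 or just above it.

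CD103 negative replicate 3 over replicates 1 and 2 gave a log2 fold change of 3.60 (SE 0.53, adjusted p = 0.00856, edgeR), a contrast in which 3.46% of all genes were called (2.16% higher and 1.30% lower). It sets 1 library against 2 and takes its spread from all groups, and the CD103 low libraries, also of 2013, did not share the level of replicate 3. CpG CD103 high over CD103 negative, read from replicates 1 and 2, gave 0.15 (interval -1.33 to 1.62). CD103 low over CD103 negative, read from replicate 3 alone, gave -2.84 (-3.94 to -1.74, adjusted p = 0.072). That value was called with the 2013 libraries alone (-2.85, adjusted p = 0.000257) and without CD103 low replicate 1 (-4.55, adjusted p = 0.0213). Without CD103 negative replicate 3 it turned to 0.73 (adjusted p = 0.497), so its size and sign rest on that library. CpG CD103 high over CD103 low was 2.99 with the date term (1.10 to 4.87, adjusted p = 0.0673), though the treated libraries had fewer Cybb counts on average. Without CD103 low replicate 1 it was 4.70 and called (adjusted p = 0.0217). With replicate 3 and the date term dropped, it was -0.60 (adjusted p = 0.573).

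Some markers of other dendritic cells were also highest in CD103 negative replicate 3. Siglech, a receptor of plasmacytoid dendritic cells, had 0.444 and 0.448 CPM in CpG CD103 high, 4.77 and 0.690 in CD103 low, and 1.76, 0.216 and 19.2 in CD103 negative libraries. Sirpa, a receptor of the type 2 conventional subset (cDC2), had 4.44 and 0.224 CPM in CpG CD103 high, 10.2 and 2.07 in CD103 low, and 3.73, 1.51 and 15.7 in CD103 negative libraries. For both genes the highest library was CD103 negative replicate 3 and the next CD103 low replicate 1, as for Cybb. Other markers did not all share this order. Spib, a plasmacytoid marker, had at least 5.60 CPM in CD103 negative and at most 4.54 in CD103 low libraries. The plasmacytoid sum was next highest in CD103 negative replicate 2 (198 CPM, against 170 in CD103 low replicate 1). The cDC2 sum was next highest in CD103 low replicate 1 (66.8 CPM). Of 8 plasmacytoid markers, 6 were highest in CD103 negative replicate 3, with a sum of 269 CPM there and 151 to 198 in the other 6 libraries, and none was at 0. Over replicates 1 and 2, 2 of the 6 tested were called higher (Siglech and Tcf4), where 2.16% of all genes were, and Bst2 was at -0.13. Of 8 cDC2 markers, 4 were highest there, with a sum of 89.6 CPM against 16.4 to 66.8 elsewhere and Clec4a4 at 0. Here too 2 of 6 tested were called higher (Cd209a and Irf4), while Sirpa was not (2.58, adjusted p = 0.119) and Itgam was at -0.58. Of 13 monocyte and macrophage markers, 4 were highest there, with a sum of 671 CPM against 329 to 705 elsewhere and Fcgr1 at 0. All 9 that were tested were positive over replicates 1 and 2, from 0.067 to 3.28 with a median of 0.52. Of these, 1 was called higher (Ly6c2, 2.24), where 2.16% of all genes were. The other 8 were not called, among them Cd68 (0.067), Lyz2 (0.093) and Vcam1 (0.13). Neutrophils carry much of the oxidase, and their 10 markers summed to 27.7 and 19.5 CPM in CpG CD103 high, 4.54 and 0.460 in CD103 low, and 0.439 to 4.31 in CD103 negative libraries. Cybb was at 5.55 and 3.36 CPM in those treated libraries. The part of these cells in the Cybb level was not tested. In bulk libraries, fewer cells of a type and less RNA per cell cannot be told apart.

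**Figure D4:**
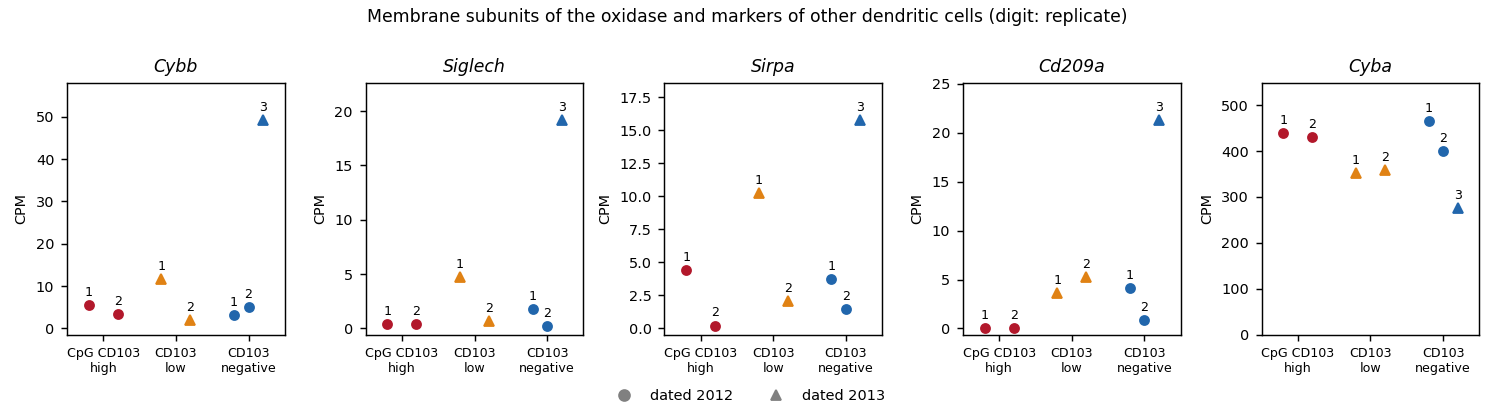
CPM of Cybb, of 3 markers of other dendritic cells (Siglech, Sirpa and Cd209a) and of Cyba in each library, with the replicate number beside each point and the date as its shape. CD103 negative replicate 3 is the highest library for Cybb (49.2), Siglech (19.2), Sirpa (15.7) and Cd209a (21.3) and the lowest for Cyba (275).

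Cyba (Entrez 13057, chromosome 8, 122424771 to 122432940) encodes p22phox, the partner that stabilises gp91phox in the membrane. It had 439.7 and 431 CPM in CpG CD103 high, 351 and 358 in CD103 low, and 465, 401 and 275 in CD103 negative libraries. The 4 libraries of 2012 all lay above the 3 of 2013, and CD103 negative replicate 3 was the lowest. CD103 negative replicate 3 over replicates 1 and 2 was called at -0.65 (SE 0.12, adjusted p = 0.0169, edgeR), which again rests on 1 library against 2. CpG CD103 high over CD103 negative was 0.01, with the narrow interval -0.19 to 0.21. CD103 low over CD103 negative was 0.37 (0.11 to 0.62, adjusted p = 0.42), and CpG CD103 high over CD103 low was -0.36 (-0.68 to -0.03, adjusted p = 0.173). The last contrast changed sign and was called at 0.32 (adjusted p = 0.0426) when CD103 negative replicate 3 and the date term were left out. Per length, Cyba exceeded Cybb by 496- and 803-fold in CpG CD103 high, 190- and 1080-fold in CD103 low, and 947-, 506- and 35-fold in CD103 negative libraries. The ratio was lowest in CD103 negative replicate 3.

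Ncf1 (Entrez 17969, chromosome 5, 134220053 to 134229628) encodes p47phox, the organiser that carries the cytosolic complex to the membrane. Its level was 319.9 and 359.7 CPM in CpG CD103 high, 353 and 363 in CD103 low, and 311, 306 and 359 in CD103 negative libraries, so that all groups overlapped. In RefSeq, a long noncoding RNA overlaps each of Cybb and Ncf1, and those RNAs were not analysed here. Log2 fold changes were 0.14 (interval -0.06 to 0.33) in CpG CD103 high and -0.01 (-0.24 to 0.23) in CD103 low over CD103 negative, and 0.14 (-0.16 to 0.45) between CpG CD103 high and CD103 low.

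Ncf4 and Rac2 lie on chromosome 15, at 78244164 to 78262582 and at 78559169 to 78572783. Ncf4 (Entrez 17972) encodes p40phox, which binds a phosphoinositide of the phagosome membrane. It had 150.2 and 150.6 CPM in CpG CD103 high, 159 and 154 in CD103 low, and 182, 168 and 145 in CD103 negative libraries. The treated libraries lay below CD103 negative replicates 1 and 2 and above replicate 3. Ncf4 in CpG CD103 high over CD103 negative was at -0.21 (-0.41 to -0.02, adjusted p = 0.093, edgeR). It was at 0.11 (-0.13 to 0.34) in CD103 low over CD103 negative and at -0.32 (-0.63 to -0.02, adjusted p = 0.192) in CpG CD103 high over CD103 low.

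Rac2 (Entrez 19354) encodes the blood-cell Rac GTPase that switches the oxidase on. It had 315 and 297 CPM in CpG CD103 high, 368 and 381 in CD103 low, and 329.6, 334 and 342 in CD103 negative libraries. The groups did not overlap, with CD103 low highest and CpG CD103 high lowest. The log2 fold changes were small: -0.12 (-0.30 to 0.06) in CpG CD103 high and 0.13 (-0.09 to 0.35) in CD103 low over CD103 negative. CpG CD103 high over CD103 low was -0.25 (-0.53 to 0.04, adjusted p = 0.277) and was called at -0.27 (adjusted p = 0.047) once CD103 negative replicate 3 was dropped together with the date term.

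Groups that did not overlap were counted beside the same count over all genes. Against CD103 negative, 2 of 9 were higher in every treated library (Wdfy4 and Rab27a) against 22.0% of all genes, and 1 was lower (Rac2) against 22.7%. Between CD103 low and CD103 negative, 1 of 9 was higher (Rac2) against 16.2% of all genes, and 0 were lower against 12.2%. Between CpG CD103 high and CD103 low, 2 were higher (Rab27a and Cyba, against 28.1%) and 3 were lower (Sec22b, Ncf4 and Rac2, against 30.6%). The libraries of this last pair have different dates, which these counts do not allow for.

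Among 19 other genes of the oxidase and its relatives, 11 passed the filter. Of these, 1 rose and 3 fell in CpG CD103 high over CD103 negative, so that 4 of 11 were called where 26.3% of all genes were, with a median log2 fold change of -0.01, the same as -0.01 over all genes. Arhgdib, an inhibitor that holds Rac in the cytosol, fell, at a log2 fold change of -0.54 (SE 0.09, adjusted p = 0.00176). Prdx6, a peroxiredoxin, fell by 0.45 (SE 0.14, adjusted p = 0.038). Prkcd, a kinase that phosphorylates p47phox, rose by 0.34 (SE 0.11, adjusted p = 0.0485). The call of Prkcd held in only 2 of 15 alternatives and that of Prdx6 in 6 of 15. With DESeq2, with no filter on low counts, without the date term or with libraries of the same date, 2 genes were called instead of 4. The count of 4 went down to 1 without CD103 negative replicate 1 and to 2 when either CD103 low library, CD103 negative replicate 2 or CpG CD103 high replicate 2 was left out. No gene of the list was called in the other comparisons, and Arhgdib, the member of highest CPM, was at -0.39 (adjusted p = 0.281) in CD103 low over CD103 negative. Arhgdib was called there without CD103 negative replicate 3 (-0.65, adjusted p = 0.00314). The other 8 genes, the non-phagocyte oxidases Nox1, Nox3, Nox4, Duox1 and Duox2 and their partners Noxa1, Duoxa1 and Duoxa2, did not pass the filter.

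Of 36 genes that carry other steps of cross-presentation, 32 passed the filter, and 6 rose and 5 fell in CpG CD103 high over CD103 negative, with a median of -0.01. These counts are near the shares of all genes called higher (14.5%) and lower (11.8%). The peptide transporter genes Tap1 and Tap2 rose by 0.83 (SE 0.08, adjusted p = 0.000118) and 0.62 (SE 0.08, adjusted p = 0.000538). Clec9a, the receptor by which cDC1 bind dead cells, rose by 0.75 (SE 0.08, adjusted p = 0.000207) and averaged 966 ± 2.69 CPM in CpG CD103 high and 625 ± 85.2 in CD103 negative cells. Hsp90aa1, a cytosolic chaperone, fell by 0.94 (SE 0.10, adjusted p = 0.000225). The count of 11 went down to 6 without CD103 negative replicate 1. In CpG CD103 high over CD103 low, 1 of 32 was called higher and 1 lower, where 3.44% and 2.78% of all genes were. These were Tap1 (0.58, adjusted p = 0.024) and Hsp90aa1 (-0.84, adjusted p = 0.0171), and neither was called without CD103 low replicate 1 or 2. Without CD103 negative replicate 1, Tap1 was not called there (0.55, adjusted p = 0.0731), and without CD103 negative replicate 3 the count was 9. The list had no call in CD103 low over CD103 negative, where Mpeg1, the member of highest CPM, encoding a pore protein of the phagosome, was at 0.20 (adjusted p = 0.614). Without CD103 negative replicate 3 the count there was 5.

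Of the relatives of Wdfy4, 7 of 9 tested rose in CpG CD103 high over CD103 negative with the date term, and 2 without it. The list joined BEACH-domain genes with Wdfy1 and Wdfy2, which carry WD repeats and a FYVE domain but no BEACH domain. Of 10 listed, 9 passed the filter, and 7 rose and 0 fell, with a median of 0.73, where 14.5% of all genes were called higher and 11.8% lower. Among the longest 1086 genes tested, 28.1% were called higher. All 9 had a positive log2 fold change, from 0.031 to 1.47. Lrba was not called, and averaged 114 ± 13.1 CPM in CpG CD103 high and 122 ± 25.8 over all 3 CD103 negative libraries. The fold changes are read from CD103 negative replicates 1 and 2, so these means do not give the sign for Lrba. Wdfy1 rose by 1.47 (SE 0.21, adjusted p = 0.00103), Wdfy2 by 0.86 (SE 0.14, adjusted p = 0.0018), Nbeal2 by 0.76 (SE 0.14, adjusted p = 0.00353) and Wdfy3 by 0.93 (SE 0.19, adjusted p = 0.00586). Wdfy1 was scarce, with 15.5 and 17.0 CPM in CpG CD103 high, 9.99 and 11.3 in CD103 low, and 6.15, 5.60 and 12.1 in CD103 negative libraries. Over CD103 low, 4 of 9 rose in CpG CD103 high, where 3.44% of all genes were called higher. They were Nbeal1 (1.41, adjusted p = 0.0152), Wdfy1 (1.66, adjusted p = 0.0188), Wdfy2 (1.07, adjusted p = 0.0219) and Lyst (0.82, adjusted p = 0.0306). Those calls went down to 0 without CD103 low replicate 1 or 2, and to 1 without CD103 negative replicate 1 or 3 or without the date term. Nbeal1 and Lyst averaged 17.2 ± 1.38 and 167 ± 23.9 CPM in CpG CD103 high and 16.4 ± 0.144 and 155 ± 1.84 in CD103 low cells, and lost the call without the date term. None was called in CD103 low over CD103 negative (3 without CD103 negative replicate 3), where 1 of 9 was positive (median -0.10), with Nsmaf, the member of highest CPM, at -0.04 (adjusted p = 0.965).

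In CD103 negative replicate 3 over replicates 1 and 2, all 9 were positive, with a median of 0.56. Of these, 2 were called higher (Lyst and Nbeal1), where 2.16% of all genes were. Without the date term the count of 7 went down to 2. It was 4 without CpG CD103 high replicate 2 or CD103 negative replicate 1, and 4 with DESeq2. Most of these genes are long, from 2011 bases (Wdfy2) to 14277 (Wdfy3), and Wdfy4 has 9681. Over all genes tested, the longest 1086 (from 6165 bases) had a median of 0.19 and the shortest 1089 (up to 1085 bases) one of -0.22 in CpG CD103 high over CD103 negative. In CD103 negative replicate 3 over replicates 1 and 2 these medians were 0.25 and -0.23. The part of length or date in the change of these genes was not tested.

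Partners of Rab27a were mostly too scarce to test, with 4 of 13 passing the filter. Unc13d, the priming factor of granule release, rose by 0.67 (SE 0.10, adjusted p = 0.0012) in CpG CD103 high over CD103 negative. Rab38, a relative of lysosome-related organelles, fell by 1.13 (SE 0.31, adjusted p = 0.0251), and its call was lost without CpG CD103 high replicate 1 or CD103 negative replicate 1, with DESeq2 and with no filter on low counts. Rab32, the member of highest CPM, was at 0.17 (adjusted p = 0.797) in CD103 low over CD103 negative and at -0.38 (adjusted p = 0.137) in CpG CD103 high over CD103 low.

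Genes of antioxidant defence meet the products of the oxidase. Of 22 listed, 20 passed the filter, and 3 rose and 5 fell in CpG CD103 high over CD103 negative, with a median of -0.11, where 14.5% of all genes were called higher and 11.8% lower. Hmox1, haem oxygenase 1, rose by 2.32 (SE 0.24, adjusted p = 0.000178), to 335 and 447 CPM in CpG CD103 high, against 102, 54.3 and 71.1 in CD103 negative libraries. Red cell and platelet markers summed to 27.7 and 32.9 CPM in CpG CD103 high, 17.5 and 7.82 in CD103 low, and 2.80 to 3.62 in CD103 negative libraries, and their part was not tested. Thioredoxin (Txn1) rose by 1.02 (SE 0.16, adjusted p = 0.00147). Catalase (Cat) fell by 0.65 (SE 0.09, adjusted p = 0.00066), to 269.6 and 262 CPM in CpG CD103 high, against 435, 399 and 416 in CD103 negative libraries. Gclc, of glutathione synthesis, fell by 0.88 (SE 0.16, adjusted p = 0.00394). Gclc was also called in CD103 negative replicate 3 over replicates 1 and 2 (0.83, adjusted p = 0.0408). Over CD103 low, 2 of 20 were called higher and 3 lower, where 3.44% of all genes were called higher and 2.78% lower. Txn1 (1.07, adjusted p = 0.0355) and Hmox1 (1.55, adjusted p = 0.0388) rose and Cat fell (-0.70, adjusted p = 0.0182). Sod1 (-0.76, adjusted p = 0.0251) and Gpx1 (-0.55, adjusted p = 0.0329) were called lower by the date-adjusted fit but averaged 278 ± 10.8 and 663 ± 26.9 CPM in CpG CD103 high and 207 ± 3.03 and 655 ± 11.2 in CD103 low cells. Both changed sign without the date term, to 0.42 and 0.02. These 5 calls went down to 0 without CD103 low replicate 1 or 2, and to 2 without CpG CD103 high replicate 2 or CD103 negative replicate 1. The count of 8 against CD103 negative went down to 4 without the date term. None was called in CD103 low over CD103 negative, where Gpx1 was at 0.15 (adjusted p = 0.813), though 6 were without CD103 negative replicate 3.

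**Figure D5:**
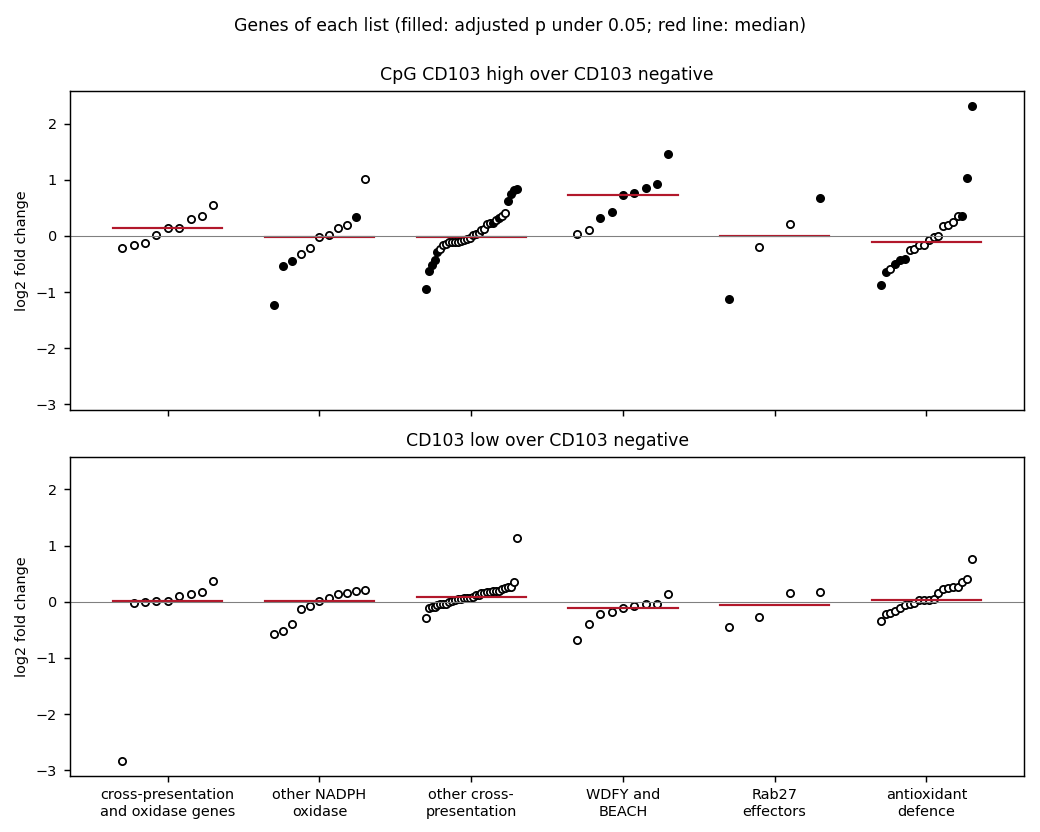
Log2 fold changes of the genes that passed the filter in each list, for CpG CD103 high over CD103 negative (top) and CD103 low over CD103 negative (bottom); filled points have an adjusted p under 0.05 and the red line is the median. In the top panel 7 of 9 WDFY and BEACH genes are filled, and none of the 9 cross-presentation and oxidase genes is.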

How the data were processed

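Each deposited file holds raw counts per gene, not normalized, and a gene length in bases (used here for RPKM), per the file headers. CASAVA, Subread 1.4.6, featureCounts and mm10 are listed without roles, per the submitters' processing notes. The annotation, the strand setting and the handling of multi-mapped reads were not given in the sources used here, so reads of overlapping genes cannot be told apart. A further table, whose 7 column names match no label, was not used. RefSeq gave symbols and coordinates for 25275 of 27179 identifiers (93%).

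Counts were fitted with edgeR 4.0.16 in R 4.3.3 (filterByExpr by group, TMM scaling, quasi-likelihood test, group and date as terms, 7 libraries, 3 residual degrees of freedom). The date term makes CD103 negative replicates 1 and 2 the control of CpG CD103 high, and replicate 3 alone that of CD103 low. SE is the size of the log2 fold change divided by the square root of F. Alternatives used DESeq2 1.42.0, limma 3.58.1, other filters, scaling and dates, and left-out libraries. Scripts were tested on simulated counts with changes of 2-fold or more and no date effect, for the 2 comparisons with CD103 negative. That test does not cover smaller changes or the date term.

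The 9 genes and the gene lists were chosen with earlier results of these data known. Also named are Itgae, Cd8a and, per list and comparison, up to 4 called genes of smallest adjusted p, or the one of highest CPM where none was called. Genes of like pattern were to be named for called members, and none was called. Single marker genes, and genes named for CD103 negative replicate 3 or for not passing the filter, were chosen after their values were seen. Some results are not reported here.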

Additional observations from a re-analysis of the deposited data

How the results depend on the processing

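The number of genes called moved by over 1.5 times under these settings. In CpG CD103 high over CD103 negative, 2860 became 1459 with DESeq2 and 1589 with no date term. In CD103 low over CD103 negative, 15 became 1 with no filter on low counts, 40 with DESeq2 (which gave no adjusted p for 6318 genes) and 187 with libraries of the same date. In CpG CD103 high over CD103 low, 676 became 263 with no filter and 382 with DESeq2. With one library left out, the counts ran from 1738 to 2861, from 1 to 1035 and from 115 to 1668 in these 3 comparisons. Of the 9 genes, 0 to 1, 0 to 1 and 0 to 3 were then called. With libraries of the same date, 1 was called in CpG CD103 high over CD103 negative (Lnpep) and 1 in CD103 low over CD103 negative (Cybb). In CpG CD103 high over CD103 low, limma voom called 1 (Cybb, 3.42, adjusted p = 0.0488).

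Without the date term, Cybb turned to -2.10 in CpG CD103 high over CD103 negative. In CD103 low over CD103 negative, Sec22b turned to 0.031, Rab27a to -0.10, Cyba to -0.10, Ncf1 to 0.14, Ncf4 to -0.075, Gpx1 to -0.26, Nsmaf to 0.11 and Rab32 to -0.031. In CpG CD103 high over CD103 low, Cybb turned to -0.61, Cyba to 0.30, Ncf1 to -0.076, Arhgdib to 0.084, Sod1 to 0.42 and Gpx1 to 0.018. Values near 0 also turned in CD103 low over CD103 negative, with Lnpep at -0.018 under limma voom and Wdfy4 at -0.000178 with libraries of the same date. Without the date term, each group is compared with all 3 CD103 negative libraries, and CpG CD103 high directly with CD103 low. With it, the control is replicates 1 and 2 for CpG CD103 high and replicate 3 alone for CD103 low. Why replicate 3 differs from replicates 1 and 2 was not tested, nor was the cause of the turns near 0.

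The replicate numbers pair at most 2 libraries per group, and deviations of same-numbered libraries correlated at 0.168, -0.00641 and 0.00245. With 2 libraries per group the deviations mirror each other, so these values cannot decide whether the numbers mark pairs. No pairing was assumed in the main fit. A fit with the replicate block in place of the date term called 1 of the 9 genes in CpG CD103 high over CD103 negative (Wdfy4, 0.30, adjusted p = 0.0292) and 2 in CpG CD103 high over CD103 low (Rab27a and Rac2). It called 1175 genes in CD103 low over CD103 negative and 1775 in CpG CD103 high over CD103 low. The block gives CD103 negative replicate 3 a term of its own. CD103 low (dated 2013) is then compared with CD103 negative replicates 1 and 2 (dated 2012). Both comparisons with CD103 low thus cross the dates, and group and date cannot be told apart in them. Under the block, values in CD103 low over CD103 negative turned to 0.065 for Sec22b, -0.21 for Rab27a, 0.68 for Cybb, -0.28 for Cyba, 0.21 for Ncf1, -0.16 for Ncf4, -0.42 for Gpx1, -0.039 for Mpeg1, 0.20 for Nsmaf and -0.12 for Rab32. In CpG CD103 high over CD103 low they turned to -0.57 for Cybb, 0.30 for Cyba, -0.077 for Ncf1, 0.082 for Arhgdib, 0.42 for Sod1 and 0.018 for Gpx1.

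With one library left out, CpG CD103 high over CD103 negative ran from -0.32 to 0.0054 for Sec22b, -0.26 to 0.53 for Cybb and -0.094 to 0.12 for Cyba. CD103 low over CD103 negative ran from -0.00490 to 0.13 for Wdfy4, -0.070 to 0.034 for Sec22b, -0.34 to 0.51 for Lnpep, -0.24 to 0.18 for Rab27a, -4.55 to 0.73 for Cybb, -0.31 to 0.38 for Cyba, -0.025 to 0.19 for Ncf1, -0.19 to 0.13 for Ncf4, -0.45 to 0.17 for Gpx1, -0.066 to 0.22 for Mpeg1, -0.050 to 0.17 for Nsmaf and -0.15 to 0.22 for Rab32. CpG CD103 high over CD103 low ran from -0.29 to 0.032 for Sec22b, -0.60 to 4.70 for Cybb, -0.46 to 0.32 for Cyba, -0.056 to 0.22 for Ncf1, -0.23 to 0.10 for Arhgdib, -0.89 to 0.44 for Sod1 and -0.60 to 0.037 for Gpx1. Without CD103 negative replicate 3 the date term cannot be fitted. Where a group keeps 1 library, that library is assumed to vary like the others. With 9 to 51 Cybb counts in 6 of 7 libraries, differences of that gene among them are poorly resolved.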
